A study of Mus musculus with 15 samples.

Results

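Pdpn, Mmrn1, Reln and Klhl4, known as marker genes of lymphatic endothelium, were followed in RNA sequencing of lymphatic endothelial cells from mouse melanomas and lymph nodes. The 4 genes were chosen by name, with earlier results of these data known, and matched to Ensembl IDs in the table of 21839 genes. All 4 passed the filter on low counts that left 13887 genes for testing. Each of 3 groups had 5 libraries: lymphatic endothelial cells isolated from melanomas (Tumor), from lymph nodes that drain the tumor (TdLN) and from lymph nodes that do not (NdLN). All came from C57bl/6 mice aged 10 weeks bearing a transplanted lymphangiogenic melanoma line, so the NdLN group is also from tumor-bearing mice. The labels give no further genotype or treatment, and they do not say whether a library came from 1 animal or from several, so p-values measure the spread between libraries, which may be technical. Cells were sorted as negative for CD45 and positive for CD31 and gp38, and gp38 is the protein of Pdpn, so the presence of Pdpn was part of the sort.

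Podoplanin, the protein of Pdpn, is a mucin-type glycoprotein of the cell surface that binds the platelet receptor CLEC-2 and, inside the cell, proteins of the ezrin family, and it is also made by fibroblastic reticular cells. Multimerin 1, the protein of Mmrn1, is a secreted matrix protein of the EMILIN family, forms large disulfide-linked multimers and binds coagulation factor V, and platelets store it as well. Reelin, the protein of Reln, is a large secreted glycoprotein best known for guiding neurons through the receptors ApoER2 (Lrp8) and VLDLR, and lymphatic endothelial cells release it toward the smooth muscle of collecting vessels. Klhl4 encodes a protein of the BTB-kelch family, which includes substrate adaptors of cullin 3 ubiquitin ligases. It is thus neither a surface nor a secreted protein by its family, and it is grouped with the others only as a lymphatic marker.

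On GRCm38 in GENCODE M21, Pdpn (ENSMUSG00000028583) lies at chr4:143267431-143299564 on the minus strand, and Mmrn1 (ENSMUSG00000054641) at chr6:60924976-60989378 on the plus strand. Reln (ENSMUSG00000042453) lies at chr5:21884454-22344702 on the minus strand, and Klhl4 (ENSMUSG00000025597) at chrX:114474333-114560829 on the plus strand. The exons of Pdpn, Mmrn1 and Klhl4 share 0 bases with exons of other genes. Reln shares 246 bases, 1.04% of its exon bases, with the antisense gene Gm10475, whose reads cannot be told apart without strand.

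The promoters of the 3 genes that differed between tumor and nodes are shown, where Mmrn1 and Klhl4 fell in the Tumor libraries and Reln rose. Their base composition differs, but a link to the direction of change was not tested in these promoters. Each is 250 bases before to 50 bases after a RefSeq start on GRCm38.p6, written 5′ to 3′ in the direction of the gene, with CG dinucleotides in capitals.
Mmrn1, chr6:60944067-60944366, plus strand: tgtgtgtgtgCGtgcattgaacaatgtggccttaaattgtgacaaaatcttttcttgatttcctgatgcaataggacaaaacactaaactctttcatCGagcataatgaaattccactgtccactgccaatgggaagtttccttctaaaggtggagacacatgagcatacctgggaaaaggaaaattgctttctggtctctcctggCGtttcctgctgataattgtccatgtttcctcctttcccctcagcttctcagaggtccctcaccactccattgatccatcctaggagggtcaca
Klhl4, chrX:114474083-114474382, plus strand: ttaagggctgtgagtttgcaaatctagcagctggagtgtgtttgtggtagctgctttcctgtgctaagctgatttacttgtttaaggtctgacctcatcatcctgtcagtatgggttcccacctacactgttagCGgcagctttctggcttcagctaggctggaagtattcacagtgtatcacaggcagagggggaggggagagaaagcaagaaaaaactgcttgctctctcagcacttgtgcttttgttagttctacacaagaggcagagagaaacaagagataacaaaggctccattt
Reln, chr5:22344656-22344955, minus strand: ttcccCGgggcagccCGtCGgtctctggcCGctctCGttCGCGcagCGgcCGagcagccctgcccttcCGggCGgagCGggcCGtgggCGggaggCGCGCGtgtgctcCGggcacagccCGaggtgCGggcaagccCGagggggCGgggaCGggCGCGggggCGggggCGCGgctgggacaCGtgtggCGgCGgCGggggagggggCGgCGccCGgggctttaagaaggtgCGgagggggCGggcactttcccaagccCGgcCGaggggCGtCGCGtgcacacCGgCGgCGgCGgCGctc
The Reln promoter held 47 CG dinucleotides and 80.7% G and C, more than 98.6% and 99.2% of 32851 promoters of the same length. The promoter of Mmrn1 held 3 CG dinucleotides and that of Klhl4 held 1, against a median of 7 over all promoters. Pdpn, at chr4:143299515-143299814, held 7. The GENCODE record of Mmrn1 begins farther upstream than the RefSeq start used here. Searched on both strands, the GATA motif AGATAA and the SOX motif ACAAAG each occurred once in the Klhl4 promoter, from position 31 and from position 36 after the start site, where their letters overlap by 1 base (11.2% and 18.7% of all promoters hold them). The nuclear receptor motif AGGTCA occurred in Klhl4 and Pdpn (16.3% of all promoters), and ACAAAG also in Pdpn. The promoters of Mmrn1 and Reln held none of these 3 letter strings, and none of the 4 held the AP-1 motif TGANTCA (7.81% of all), the ETS motif AGGAAG (35.4%) or TATAAA (13.6%). These are matches of letters, and binding was not measured. The motifs were chosen after the promoters were seen, so the shares over all promoters do not measure how unusual a match is.

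Library totals ran from 23830337 to 34577494 counts in Tumor, from 32134127 to 37043976 in TdLN and from 31894931 to 37437282 in NdLN libraries. The lowest count behind any value of the 4 genes was 688, for Reln, so counting error was small beside the spread between libraries. Levels are given as CPM, each gene's share of a library's counts, scaled with TMM factors. The Tumor libraries held transcripts of other cells: 8 pigment cell markers took 2.66% to 4.14% of all counts there, against 0.00117% to 0.00325% in TdLN and 0.00168% to 0.00361% in NdLN libraries. The 8 pan-endothelial genes, among them Cdh5 and Pecam1, took 0.243% to 0.372% in Tumor, 0.67% to 0.775% in TdLN and 0.713% to 0.867% in NdLN libraries. Pecam1 encodes CD31, on which the cells were also sorted. In bulk samples fewer cells of a type and less RNA per cell cannot be told apart, so each gene is also given relative to the pan-endothelial genes and to Prox1, whose transcription factor keeps lymphatic endothelium in its lineage. Ptprc, which encodes CD45, was near 0, at 1.68 ± 1.45 CPM in Tumor, 1.10 ± 0.943 in TdLN and 5.43 ± 3.77 in NdLN libraries (SD, n = 5).

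**Figure D1:**
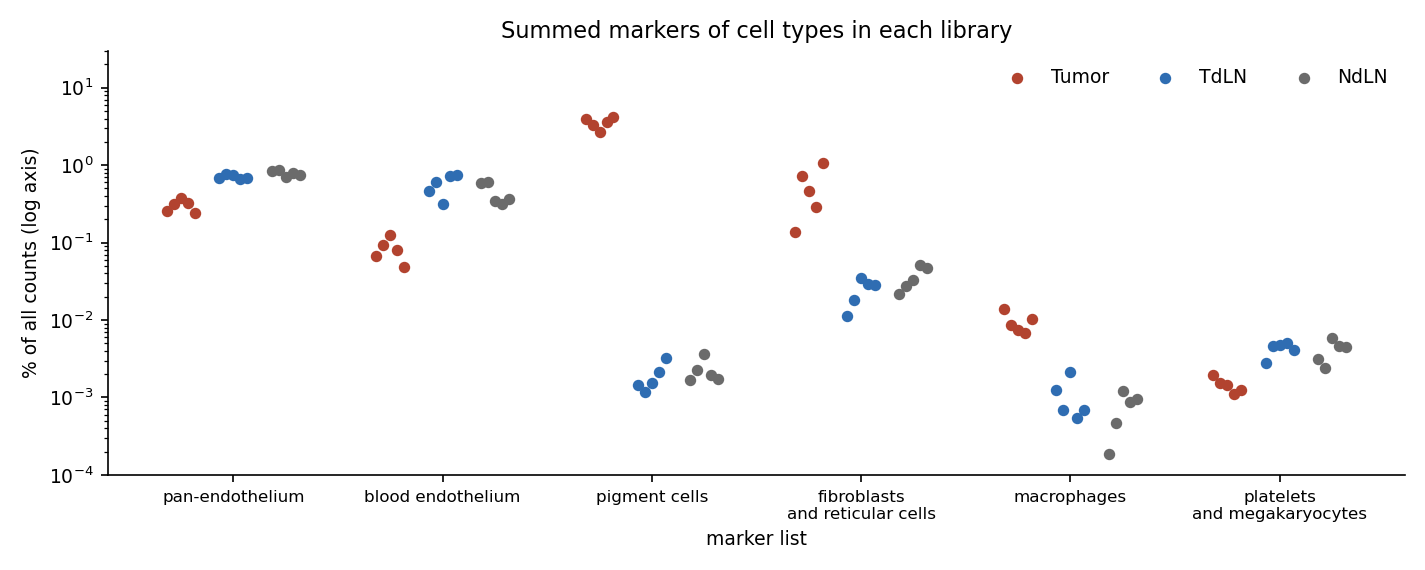
Share of all counts taken by the summed markers of 6 cell type lists (log axis), 1 point per library, 5 libraries per group. Pigment cell markers lie at 2.66% to 4.14% in Tumor libraries and at most at 0.00361% in the node libraries, while the pan-endothelial genes lie lower in each Tumor library than in each node library.

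How do the markers of lymphatic endothelium differ between the tumor and the draining node? Mmrn1 and Klhl4 fell in the Tumor libraries, Reln rose, and Pdpn did not pass the test. In edgeR's quasi-likelihood test 3 of the 4 genes were called at an adjusted p under 0.05, 1 higher and 2 lower, where 62.0% of all genes tested were called, 31.9% higher and 30.1% lower. The share of the 4 genes called is thus near the background.

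Klhl4 had 59.8, 67.4, 68.5, 77.5 and 64.9 CPM in the Tumor libraries, against 555, 561, 711, 548 and 661 CPM in the TdLN libraries. Every Tumor library lay far below every TdLN library, and the Tumor values were close to each other. Klhl4 averaged 67.6 ± 6.47 CPM in Tumor and 607 ± 74.2 CPM in TdLN libraries (SD, n = 5 each), 11.1% of the TdLN level. Its log2 fold change was -3.17 ± 0.11 (SE, edgeR adjusted p = 9.98e-12). Mmrn1 had 483, 849, 682, 916 and 682 CPM in the Tumor libraries, against 2312, 2599, 2912, 2403 and 2855 CPM in the TdLN libraries. These groups did not overlap either, which held for 46.6% of all genes tested. The Mmrn1 means were 722 ± 169 CPM in Tumor and 2616 ± 266 CPM in TdLN libraries (SD, n = 5 each), and the log2 fold change was -1.86 ± 0.17 (edgeR adjusted p = 1.77e-07).

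Reln went the other way. It had 67.3, 116, 75.2, 99.7 and 60.5 CPM in the Tumor libraries, against 31.9, 29.3, 28.3, 42.9 and 44.8 CPM in the TdLN libraries, and the lowest Tumor value lay above the highest TdLN value. The means were 83.7 ± 23.3 CPM in Tumor and 35.4 ± 7.81 CPM in TdLN libraries, 2.36-fold higher (log2 fold change 1.24 ± 0.27, edgeR adjusted p = 0.000929). The Tumor libraries in which Reln was higher are those with pigment cell transcripts. They also held more transcripts of 9 fibroblast and reticular markers, 0.139% to 1.07% of counts against 0.0113% to 0.0354% in TdLN libraries. Of these markers 8 rose and 1 fell, Ccl19, at 0.145 CPM in Tumor and 4.73 CPM in TdLN libraries. The highest in Tumor were the collagen genes Col3a1, Col1a1 and Col1a2, at 2114, 1167 and 1147 CPM. From Tumor 1 to Tumor 5 the fibroblast and reticular shares were 0.139%, 0.718%, 0.462%, 0.289% and 1.07%, so the highest Reln value, in Tumor 2, stood beside the second highest share and the lowest, in Tumor 5, beside the highest. The part of these cells in the Reln level was not tested.

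Pdpn had 41.0, 109.6, 162, 143 and 126 CPM in the Tumor libraries, against 123, 125, 134, 93.6 and 125 CPM in the TdLN libraries. The groups overlapped, and 1 Tumor library, Tumor 1, lay far below the rest. The log2 fold change was -0.05 ± 0.26 with a 95% interval from -0.60 to 0.50 (edgeR adjusted p = 0.889), which spans 0.662-fold to 1.42-fold. Without Tumor 1 it was 0.17 (edgeR adjusted p = 0.322). Tumor 1 also had the lowest fibroblast and reticular share of the Tumor libraries, while Tumor 3, with the highest Pdpn value, had a middle share and Tumor 5, with the highest share, a middle Pdpn value. The part of these cells in the Pdpn level was not tested.

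**Figure D2:**
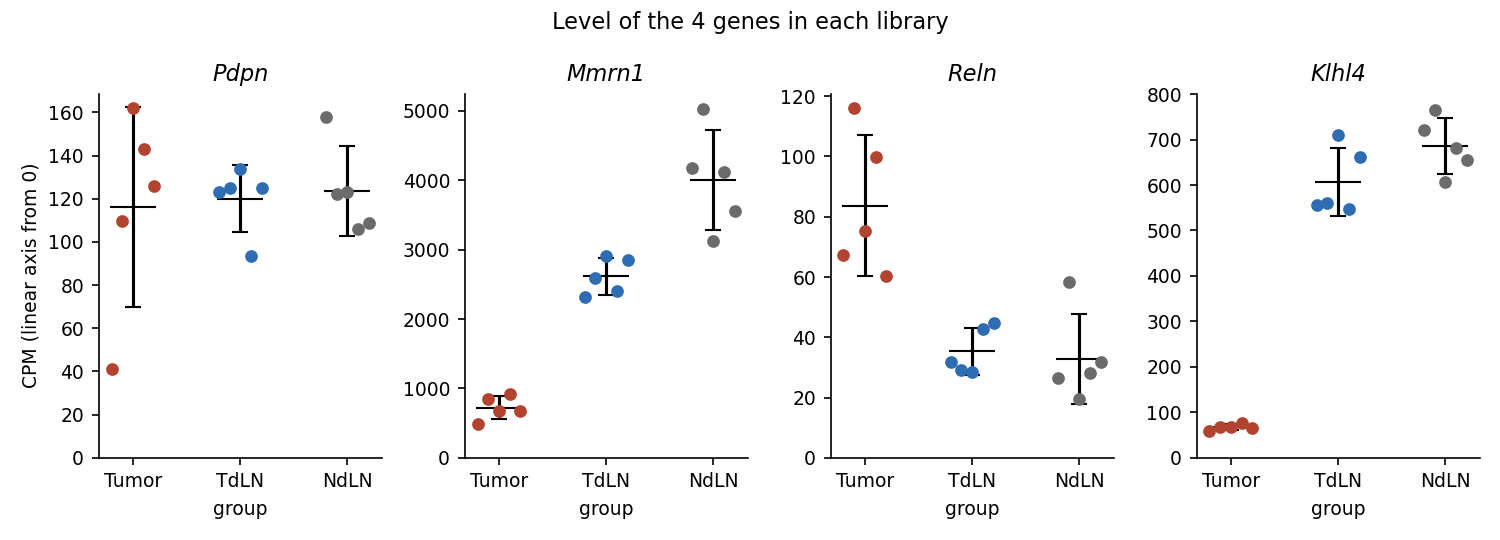
CPM of the 4 genes on linear axes from 0, 1 point per library, with the mean and SD of 5 libraries per group. Klhl4 and Mmrn1 lie lower and Reln higher in each Tumor library than in each node library, while Pdpn overlaps between the groups.

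Scaled to the 8 pan-endothelial genes in place of all genes, the median log2 fold change of all genes between Tumor and TdLN moved to 1.39, against 0.04 with TMM, and 71.4% of all genes were called higher and 8.86% lower. On that scale Klhl4 and Mmrn1 stayed lower, by -1.82 and -0.52 (log2, edgeR adjusted p = 6.77e-09 and 0.00441), both below the median gene. Reln was higher by 2.56, above the median gene (edgeR adjusted p = 1.13e-07). Pdpn turned to 1.25, a call in the opposite direction (edgeR adjusted p = 6.87e-05) that lay close to the median gene. So Klhl4 and Mmrn1 were lower in Tumor libraries even beside the 8 pan-endothelial genes as a set, while the sign of Pdpn depended on the scale. For Mmrn1 the direction also depended on the reference. Its log2 ratio to Prox1 was higher in Tumor than in TdLN libraries by 0.50 (exact permutation adjusted p = 0.0254).

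**Figure D3:**
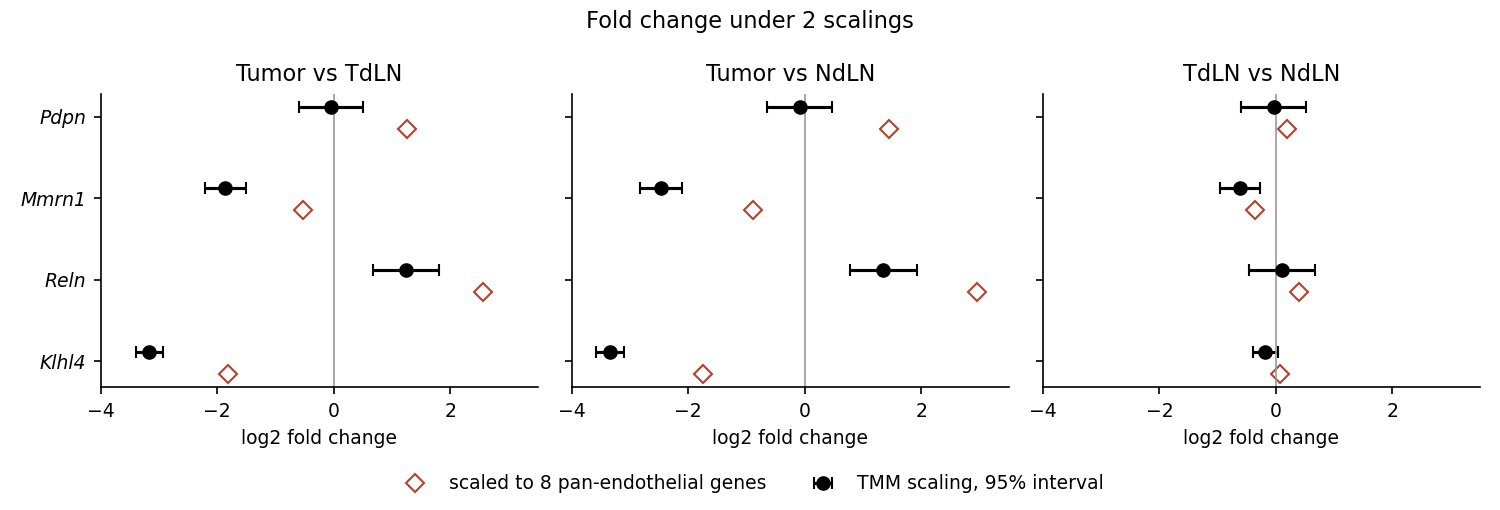
Log2 fold change of each gene in the 3 comparisons, as black points with 95% intervals under TMM scaling and as open diamonds when scaled to 8 pan-endothelial genes. For Pdpn between Tumor and TdLN the points are -0.05 and 1.25, and Klhl4 and Mmrn1 stay below 0 on both scales in both tumor comparisons.

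Set against the non-draining node, which shares the Tumor libraries with the comparison above, the same 3 genes were called, 1 higher and 2 lower, where 66.5% of all genes were, 34.0% higher and 32.5% lower. Klhl4 had 722, 766, 607, 681 and 654 CPM in the NdLN libraries, and its Tumor level was 9.86% of theirs (log2 fold change -3.34 ± 0.11, edgeR adjusted p = 6.00e-12). Mmrn1 had 4179.5, 5024, 3127, 4121 and 3559.8 CPM in the NdLN libraries, the highest level of any of the 4 genes in any group. The Tumor level of Mmrn1 was 18.1% of it (-2.47 ± 0.17, edgeR adjusted p = 8.33e-09). Reln had 26.6, 58.2, 19.5, 28.1 and 31.8 CPM in the NdLN libraries, with NdLN 2 the highest. It was 2.55-fold higher in the Tumor libraries (1.35 ± 0.27, edgeR adjusted p = 0.000413), and the groups did not overlap, as for 54.6% of all genes. Pdpn had 158, 122, 123, 106 and 109 CPM in the NdLN libraries, within the range of the Tumor libraries (-0.09 ± 0.26, 95% interval -0.64 to 0.46, edgeR adjusted p = 0.78), and it too turned on the pan-endothelial scale, to 1.45 (edgeR adjusted p = 1.27e-05). On that scale 74.4% of all genes were called higher and 8.58% lower, and the median gene was at 1.64, above Pdpn.

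Does any of the markers differ between the draining and the non-draining node? By edgeR's quasi-likelihood test 0 of the 4 genes were called between TdLN and NdLN, where 3.49% of all genes were, 1.84% higher and 1.64% lower, and 1 of the 4, Mmrn1, had an unadjusted p under 0.05. Mmrn1 averaged 2616 ± 266 CPM in TdLN and 4002 ± 716 CPM in NdLN libraries (SD, n = 5 each), and no TdLN library reached an NdLN library, as for 7.83% of all genes. Its log2 fold change of -0.61 ± 0.16 had an edgeR adjusted p = 0.0516. DESeq2 called Mmrn1 lower (adjusted p = 0.01), as did voom with quality weights (adjusted p = 0.0169) and edgeR fitted to the node libraries alone (adjusted p = 0.0258) or without NdLN 3 (adjusted p = 0.0451). With RLE factors and with a filter of 10 CPM in 5 libraries, edgeR's adjusted p was 0.0478 and 0.0377. Mmrn1 was not called with upper quartile factors, without a filter or with the replicate number as a block. Nor was it called when any library other than NdLN 3 was left out. On the pan-endothelial scale its log2 fold change was -0.36 (edgeR adjusted p = 0.206), where 2.57% of all genes were called higher and 0.338% lower. The difference thus lies at the threshold, and the call depends on the test, the scaling, the filter and the libraries.

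Klhl4 was at 607 ± 74.2 CPM in TdLN and 686 ± 61.3 CPM in NdLN libraries, with a log2 fold change of -0.18 and a 95% interval from -0.39 to 0.04 (edgeR adjusted p = 0.397). Reln was at 35.4 ± 7.81 CPM in TdLN and 32.8 ± 14.9 CPM in NdLN libraries, with a log2 fold change of 0.11 and an interval from -0.46 to 0.68 (edgeR adjusted p = 0.874). Pdpn was at 120.1 ± 15.4 CPM in TdLN and 124 ± 20.7 CPM in NdLN libraries, with a log2 fold change of -0.04 and an interval from -0.59 to 0.51 (edgeR adjusted p = 0.958). The groups overlapped for each of these 3 genes. The interval of Klhl4 is the narrowest. That of Reln spans 0.729-fold to 1.60-fold, and that of Pdpn 0.664-fold to 1.42-fold.

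Levels of different genes were compared as CPM per kilobase of exon, from the union of all annotated exons, which is 1.817 kb for Pdpn, 5.868 kb for Mmrn1, 3.584 kb for Klhl4 and 23.74 kb for Reln. The union for Reln covers 15 transcripts, so its level per kilobase is a low estimate. On this scale the order in the Tumor libraries was Mmrn1 (123 ± 28.7 CPM per kb), Pdpn (64.0 ± 25.6), Klhl4 (18.9 ± 1.81) and Reln (3.53 ± 0.983). There Mmrn1 and Pdpn were neighbours whose libraries overlapped, at 82.4 to 156 and 22.6 to 89.3 CPM per kb. In the TdLN libraries Klhl4 (169 ± 20.7) stood between Mmrn1 (446 ± 45.3) and Pdpn (66.1 ± 8.49), and Reln was lowest (1.49 ± 0.329). The NdLN libraries had the order of the TdLN libraries, with Mmrn1 at 682 ± 122, Klhl4 at 191 ± 17.1, Pdpn at 68.0 ± 11.4 and Reln at 1.38 ± 0.627 CPM per kb. Klhl4 and Pdpn thus changed places between tumor and nodes. By level per kilobase Mmrn1 ranked 446th of 13855 genes in Tumor, 70th in TdLN and 40th in NdLN libraries.

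The spread between libraries also differed between the genes. The coefficient of variation of Klhl4 was 9.57% in Tumor, 12.2% in TdLN and 8.93% in NdLN libraries. For Pdpn it was 39.9% in Tumor, 12.8% in TdLN and 16.7% in NdLN libraries, and for Reln 27.9% in Tumor, 22% in TdLN and 45.3% in NdLN libraries. For Mmrn1 it was 23.3% in Tumor, 10.2% in TdLN, the lowest of the 4 genes there, and 17.9% in NdLN libraries.

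A scaling factor cancels out of a ratio within a library, and such ratios were used to ask whether the genes changed by different amounts. The 6 pairs of genes were compared in 3 comparisons with exact permutation tests, two-sided and adjusted over 18 tests, and 5 libraries against 5 can give no p below 0.00794. The log2 ratio of Mmrn1 to Klhl4 was 3.39 ± 0.25 in Tumor, 2.11 ± 0.07 in TdLN and 2.53 ± 0.13 in NdLN libraries. It was higher in Tumor than in TdLN by 1.28 (exact permutation p = 0.00794, adjusted p = 0.0119), so Klhl4 fell more than Mmrn1. Between TdLN and NdLN it was lower by -0.42 in TdLN, with no overlap and the same p values, so all 5 TdLN libraries had less Mmrn1 per Klhl4 than any NdLN library. The ratio of Reln to Klhl4 was higher in Tumor than in TdLN by 4.39 on the log2 scale, 20.9-fold, the widest divergence of any pair between these groups (exact permutation p = 0.00794, adjusted p = 0.0119). The ratio of Pdpn to Klhl4 was higher by 2.99 and that of Pdpn to Mmrn1 by 1.71, each with no overlap and the same p values. Pdpn over Reln was lower by -1.40 in Tumor than in TdLN libraries (exact permutation p = 0.00794, adjusted p = 0.0119). Between the nodes, the ratio of Pdpn to Mmrn1 was higher by 0.56 in TdLN (exact permutation p = 0.0159, adjusted p = 0.0204), while the libraries overlapped.

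**Figure D4:**
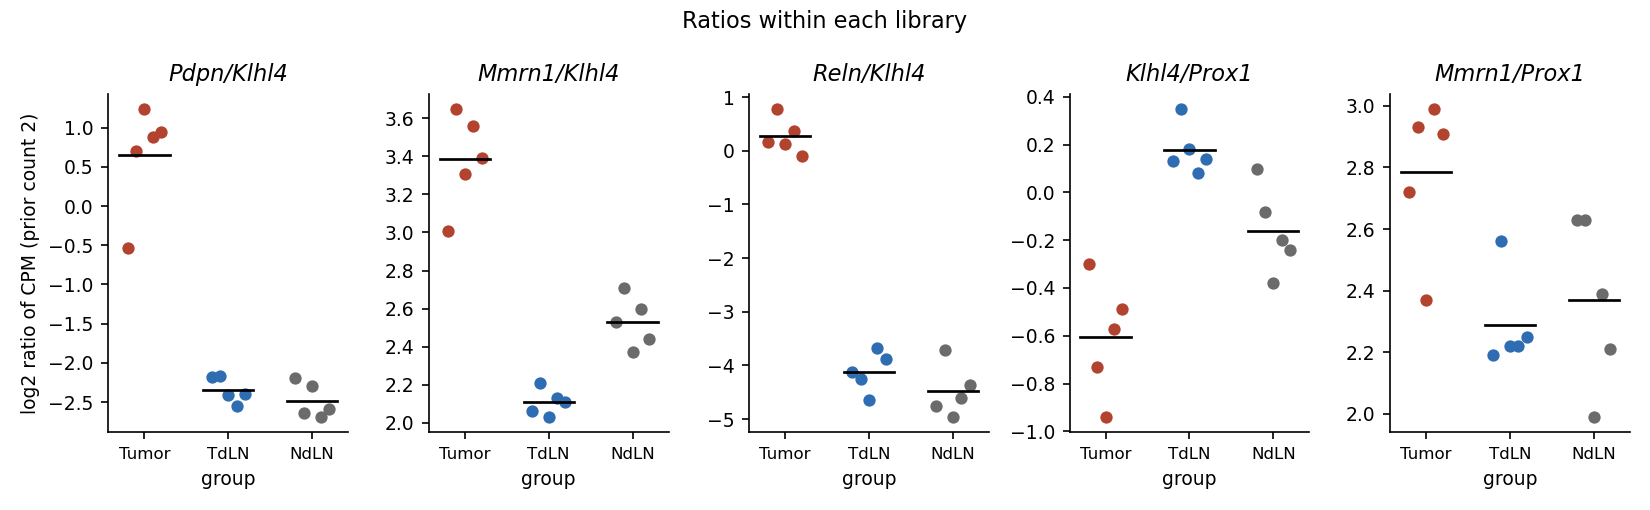
Log2 ratios of CPM within each library for 5 pairs of genes, Prox1 included, 1 point per library and a line at the mean of 5 libraries. Mmrn1 over Klhl4 falls into 3 ranges that do not overlap, at 3.01 to 3.65 in Tumor, 2.03 to 2.21 in TdLN and 2.37 to 2.71 in NdLN libraries.

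Relative to Prox1, which itself fell to 105 ± 22.7 CPM in Tumor, against 539 ± 74.9 CPM in TdLN and 766 ± 52.9 CPM in NdLN libraries, the genes differed in direction. These comparisons were made with exact permutation tests adjusted over 24 tests. The log2 ratio of Klhl4 to Prox1 was -0.61 ± 0.24 in Tumor and 0.18 ± 0.10 in TdLN libraries, lower by -0.78 with no overlap (exact permutation p = 0.00794, adjusted p = 0.0159). Mmrn1 to Prox1 was 2.78 ± 0.25 in Tumor and 2.29 ± 0.15 in TdLN libraries, higher by 0.50 (exact permutation p = 0.0159, adjusted p = 0.0254). The libraries overlapped for Mmrn1 to Prox1, at 2.37 to 2.99 in Tumor and 2.19 to 2.56 in TdLN libraries. Thus Klhl4 fell more and Mmrn1 on average less than Prox1 between TdLN and Tumor. Against NdLN libraries Mmrn1 to Prox1 was higher by 0.41 in Tumor (exact permutation adjusted p = 0.0476). That call was lost in 9 of 10 fits that left out 1 library. Reln to Prox1 was higher in Tumor than in TdLN by 3.6, 12.2-fold, and Pdpn to Prox1 by 2.21, 4.61-fold, both with no overlap (exact permutation p = 0.00794, adjusted p = 0.0159). Between the nodes Klhl4 to Prox1 was higher by 0.34 in TdLN (exact permutation p = 0.0159, adjusted p = 0.0254), and for Mmrn1 to Prox1 the difference was -0.08 (exact permutation p = 0.563). Relative to the summed pan-endothelial genes, Mmrn1 was lower in Tumor than in TdLN by -0.53 and Klhl4 by -1.80, each with no overlap (exact permutation p = 0.00794, adjusted p = 0.0159). Mmrn1 was also lower on this measure in TdLN than in NdLN, by -0.40, with no overlap and the same p values. The edgeR fit on the pan-endothelial scale, adjusted over all genes tested and not over 24 tests, did not call this difference. Pdpn was higher in Tumor than in TdLN by 1.18, with overlap through Tumor 1 (exact permutation p = 0.0317, adjusted p = 0.0423), and this call was lost in 9 of 10 fits that left out 1 library, with values from 1.05 to 1.48.

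Genes whose profile lay closest to each marker were found by the root-mean-square difference of log2 CPM, centred per gene, over the 15 libraries, among 9061 genes. For Klhl4 the closest was Mmrn2, the endothelial relative of Mmrn1 (0.142, against 1.58 for the median gene), with 105 ± 19.2 CPM in Tumor, 966 ± 83.3 in TdLN and 1160.2 ± 50.5 in NdLN libraries. Sema3d, a secreted semaphorin (0.18), and Tgfbi, a matrix protein (0.185), followed. For Mmrn1 the closest was Tek, the angiopoietin receptor TIE2 (0.152, against 1.14 for the median gene), with 68.0 ± 16.7 CPM in Tumor, 273 ± 14.1 in TdLN and 399 ± 61.8 in NdLN libraries, followed by Plscr4 (0.16) and Apbb1 (0.167). For Reln the closest were Dlg1 (0.322), Dennd2a (0.346) and Ebag9 (0.349), farther off than for the other genes. Dlg1, a scaffold protein of cell polarity, was at 77.2 ± 22.4 CPM in Tumor, 35.5 ± 12.7 in TdLN and 31.7 ± 8.88 in NdLN libraries. For Pdpn they were Kctd17 (0.133), Rtl8b (0.152) and Gnb2 (0.152), genes whose group means differed little and whose spread was widest in Tumor. Among the 4 markers themselves Mmrn1 and Klhl4 lay closest (0.552) and Reln and Klhl4 farthest apart (2.19).

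Partner and family genes of each marker were taken from lists. The Tumor libraries also held transcripts of other cells, and the part of those cells in the levels of the listed genes was not tested. Counts are given under TMM and on the pan-endothelial scale, since the direction of some genes depends on the scale. For every list, TMM counts for Tumor against TdLN stand beside 31.9% of all genes higher and 30.1% lower. Pan-endothelial counts for Tumor against TdLN stand beside 71.4% of all genes higher, 8.86% lower and a median of 1.39. Of 11 genes of podoplanin partners, 3 rose and 4 fell in Tumor against TdLN libraries, with a median log2 fold change of -0.14 (0.04 over all genes). On the pan-endothelial scale 9 rose and 1 fell, with a median of 1.18. Clec1b, the gene of the podoplanin receptor CLEC-2, was low in all groups, at 0.233 ± 0.267 CPM in Tumor and 13.1 ± 5.61 CPM in TdLN libraries (-5.89 ± 0.71, edgeR adjusted p = 3.91e-06). Ezr, the ezrin that links podoplanin to the cytoskeleton, rose (0.59 ± 0.12, edgeR adjusted p = 0.000733), while its relative Msn was at 1249.6 ± 263 CPM in Tumor and 1380 ± 238 CPM in TdLN libraries and did not pass (-0.14 ± 0.15). Cd44, a hyaluronan receptor that binds podoplanin, rose to 289 ± 56.1 CPM in Tumor, against 85.2 ± 7.77 CPM in TdLN libraries (1.76 ± 0.20, edgeR adjusted p = 2.23e-06). Lgals8, a galectin that binds podoplanin, fell under TMM (-1.24 ± 0.10, edgeR adjusted p = 6.88e-08) and was at 0.12 on the pan-endothelial scale (edgeR adjusted p = 0.527). Ccl21a, which is also on the list of other lymphatic genes and encodes the chemokine that podoplanin can hold at the cell surface, rose to 1227 ± 367 CPM, against 135 ± 71.0 CPM in TdLN libraries, and its counts are uncertain because reads can be shared with near-identical copies.

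Of 11 genes of the EMILIN and multimerin family and their partners, 1 rose and 6 fell in Tumor against TdLN libraries, with a median of -1.0, and on the pan-endothelial scale 4 rose and 4 fell, with a median of 0.284, below that of all genes. Mmrn2 fell by 3.21 on the log2 scale (edgeR adjusted p = 2.81e-11), as did the genes of its endothelial receptors, Cd93 (-2.43 ± 0.19) and Clec14a (-6.07 ± 0.34). Clec14a was at 2.20 ± 1.14 CPM in Tumor and 149 ± 27.8 CPM in TdLN libraries. Emilin1, a matrix ligand of the integrin with the alpha 9 chain, was at 370.2 ± 102 CPM in Tumor and 838 ± 238 CPM in TdLN libraries (-1.18 ± 0.21 under TMM, edgeR adjusted p = 0.000207, and 0.14 on the pan-endothelial scale, edgeR adjusted p = 0.509). Emilin2 was the gene that rose, at 27.8 ± 18.2 CPM in Tumor and 0.183 ± 0.223 CPM in TdLN libraries (7.22 ± 1.43, edgeR adjusted p = 0.000447). F5, coagulation factor V, which multimerin 1 binds, was low, at 0.439 ± 0.614 CPM in Tumor and 7.55 ± 5.40 CPM in TdLN libraries. Since platelets also hold Mmrn1, their markers were read: the 8 platelet and megakaryocyte markers together took 0.0011% to 0.00193% of counts in Tumor, 0.00276% to 0.00506% in TdLN and 0.00242% to 0.00595% in NdLN libraries, and Gp6 was at 0 in all 15. Most of this sum was Pf4, a platelet chemokine, at 9.66 ± 2.43 CPM in Tumor and 39.4 ± 8.47 CPM in TdLN libraries. Of the 4 tested, 2 fell in Tumor against TdLN libraries, Pf4 and Gp1ba (0.286 against 3.45 CPM). The other 2 rose, Ppbp (2.0 against 0 CPM) and Gp9 (1.08 against 0.201 CPM), so the markers were split in direction. Markers of blood endothelium, which also expresses Mmrn2, Cd93 and Clec14a and which a sort for gp38 should leave out, took 0.0484% to 0.126% of counts in Tumor and 0.312% to 0.754% in TdLN libraries. Most of this was Plvap and Glycam1, at 462 and 1.59 CPM in Tumor and 3325 and 2022 CPM in TdLN libraries. Plvap ran from 314 to 5097 CPM among the TdLN libraries, where Podxl, Emcn and Vwf were at 351, 56.3 and 14.3 CPM. The sum thus follows mainly Plvap and Glycam1 and cannot be read as an amount of blood endothelium. Of the 9 markers 6 fell and 1 rose, Ly6c1, while Flt1 was at 7.6 CPM in Tumor and 7.48 CPM in TdLN libraries and did not pass. The part of these cells in the levels of this family was not tested.

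Of 16 genes of the reelin pathway, 4 rose, 4 fell and 8 did not pass in Tumor against TdLN libraries, with a median of 0.01. On the pan-endothelial scale 15 rose and 1 fell, with a median of 1.34, close to that of all genes. Under TMM the receptor genes moved in opposite directions, with Lrp8 at 8.30 ± 7.67 CPM in Tumor and 0.394 ± 0.404 CPM in TdLN libraries (4.38 ± 0.90, edgeR adjusted p = 0.000598), and Vldlr at 19.2 ± 4.81 CPM in Tumor and 33.6 ± 9.43 CPM in TdLN libraries (-0.81 ± 0.20, edgeR adjusted p = 0.00207). Scaled to the pan-endothelial genes both rose, Lrp8 by 5.69 and Vldlr by 0.53 (edgeR adjusted p = 2.19e-05 and 0.0226), and Vldlr lay below the median of all genes. Dab1, the adaptor that carries the reelin signal from both receptors, had 4 counts over the 5 Tumor libraries and 2292 over the 5 TdLN libraries, 0.0244 ± 0.0238 CPM in Tumor and 13.5 ± 6.88 CPM in TdLN libraries (edgeR adjusted p = 5.36e-09). Fyn, a kinase that phosphorylates Dab1, rose (2.47 ± 0.60, edgeR adjusted p = 0.00221). So in the Tumor libraries, where Reln was higher, its adaptor was almost absent. Of the proteases known to cleave reelin, Adamts2 rose to 50.9 ± 42.0 CPM in Tumor, against 4.21 ± 3.08 CPM in TdLN libraries (3.59 ± 0.68, edgeR adjusted p = 0.000297), and Adamts4 rose (0.69 ± 0.26, edgeR adjusted p = 0.0318). The other proteases on the list did not pass under TMM. These were Adamts3 (0.52, edgeR adjusted p = 0.388), Adamts5 (-0.72, 0.0508), Furin (0.28, 0.534) and Plat (-0.1, 0.678). Adamts2 also acts on procollagen, and the libraries in which it was higher held more fibroblast transcripts. The part of those cells was not tested.

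Of 26 tested genes of the BTB-kelch family and the cullin 3 ligase, 3 rose and 12 fell in Tumor against TdLN libraries, with a median of -0.30, and on the pan-endothelial scale 18 rose and 2 fell, with a median of 1.04. Klhl1, of the same list, did not pass the filter on low counts. Klhl4, which is not counted in the list, lay below all 26 in this comparison, followed by Klhl29 (-3.00 ± 0.52), Klhl36 (-2.42 ± 0.14) and Klhl3 (-2.23 ± 0.51). Klhl23 went up, at 12.4 ± 1.16 CPM in Tumor and 2.36 ± 0.663 CPM in TdLN libraries (2.39 ± 0.36, edgeR adjusted p = 3.99e-05). Cul3, the ligase scaffold, was at 30.7 ± 14.5 CPM in Tumor and 25.8 ± 8.06 CPM in TdLN libraries and did not pass, and Rbx1, its RING subunit, rose (0.75 ± 0.12, edgeR adjusted p = 5.64e-05).

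Of 15 other lymphatic endothelial genes, 1 rose and 10 fell in Tumor against TdLN libraries, with a median of -1.0. On the pan-endothelial scale 6 rose and 2 fell, with a median of 0.284, below that of all genes. Stab2, a sinus scavenger receptor, had the lowest fold change (-8.63 ± 0.34), and Flt4, the receptor of VEGF-C, did not pass, at 652 ± 265 CPM in Tumor and 894 ± 177 CPM in TdLN libraries (-0.46 ± 0.26, edgeR adjusted p = 0.146). Mmrn1 and Klhl4 both lay below the median of this list, and Reln and Pdpn above it.

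Against the NdLN libraries, 34.0% of all genes were higher and 32.5% lower in Tumor libraries under TMM. On the pan-endothelial scale 74.4% were higher and 8.58% lower. Of the podoplanin partners 4 rose and 5 fell under TMM, with 9 higher and 1 lower on the pan-endothelial scale. Of the EMILIN and multimerin list 2 rose and 5 fell (6 and 3 on that scale), and of the reelin pathway 5 rose and 4 fell (14 and 1). Of the BTB-kelch list 4 rose and 14 fell (21 and 1), and of the other lymphatic genes 2 rose and 7 fell (10 and 2). Lyve1 was at 858 ± 138 CPM in Tumor and 977 ± 253 CPM in NdLN libraries and did not pass (edgeR adjusted p = 0.374), whereas against TdLN libraries, at 1680.4 ± 296 CPM, it fell (edgeR adjusted p = 0.000284).

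**Figure D5:**
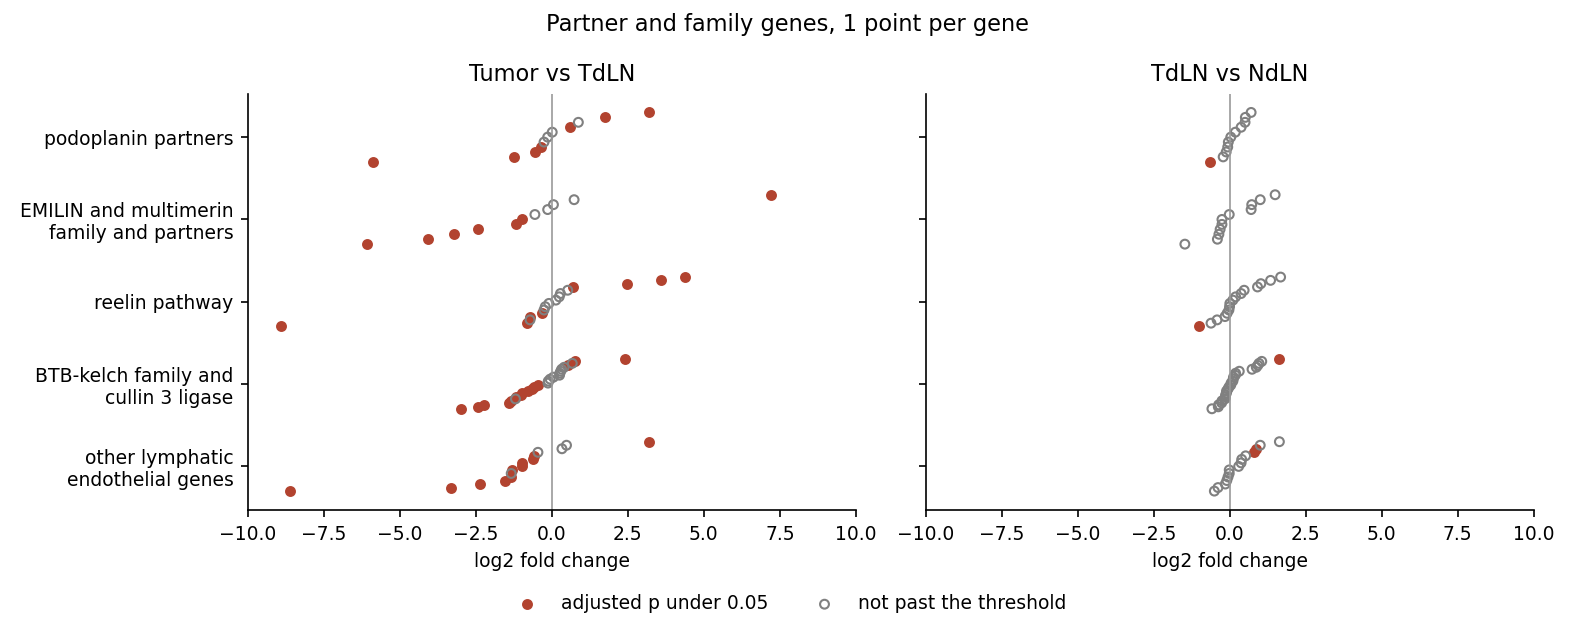
Log2 fold change of each tested gene of the 5 lists between Tumor and TdLN (left) and between TdLN and NdLN (right), 1 point per gene, filled where edgeR's adjusted p was under 0.05. Between the nodes 5 points are filled, where edgeR called 3.49% of all genes tested. In each list the points spread less widely between the nodes than between Tumor and TdLN.

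Between TdLN and NdLN, edgeR called 3.49% of all genes tested, 1.84% higher and 1.64% lower, and the counts per list stand beside these shares. Of the podoplanin partners 1 fell, Cd9, a tetraspanin that associates with podoplanin, at 603 ± 88.4 CPM in TdLN and 944 ± 185 CPM in NdLN libraries (-0.65 ± 0.15, edgeR adjusted p = 0.0247). Cd9 did not pass without NdLN 1 (adjusted p = 0.0608), NdLN 2 (0.069) or TdLN 1 (0.0696). Of the reelin pathway 1 fell, Plat, the tissue plasminogen activator, which can cleave reelin, at 231 ± 36.8 CPM in TdLN and 473 ± 137 CPM in NdLN libraries (-1.03 ± 0.20, edgeR adjusted p = 0.0102). Of the BTB-kelch list 1 rose, Klhl23 (1.62 ± 0.37, edgeR adjusted p = 0.0255). Klhl23 did not pass without NdLN 2 (adjusted p = 0.0684), NdLN 4 (0.0605), TdLN 1 (0.0676) or TdLN 2 (0.0689), nor in the fit of the node libraries alone (0.0704). Among the other lymphatic genes 2 rose, the hyaluronan receptor gene Lyve1 (0.78 ± 0.18, edgeR adjusted p = 0.0288) and Ackr2, a scavenger of inflammatory chemokines (0.86 ± 0.14, edgeR adjusted p = 0.00372). Lyve1 did not pass without NdLN 1, 2 or 4 or without TdLN 1, 2 or 3 (adjusted p from 0.0559 to 0.0841), while Ackr2 and Plat passed whichever library was left out. Of the EMILIN and multimerin list 0 were called by edgeR, with Emilin1 at 838 ± 238 CPM in TdLN and 509 ± 27.5 CPM in NdLN libraries (0.72 ± 0.21, edgeR adjusted p = 0.0817). Scaled to the pan-endothelial genes, 0 podoplanin partners passed, 1 gene of the EMILIN and multimerin list rose, 1 of the reelin pathway rose and 1 fell, 1 of the BTB-kelch list rose, and 3 other lymphatic genes rose. On that scale 2.57% of all genes were called higher and 0.338% lower.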

How the data were processed

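RNA of sorted cells was amplified from low input and read as single reads of 50 bases, per the labels' protocols. The authors deposited a table of raw read counts, with no normalization. CASAVA 1.8.2, STAR 2.4 and featureCounts 1.4.6 with GRCm38 are named in the submitters' processing notes. Their annotation release and strand setting are not stated in these sources. IDs were matched to GENCODE M21 (21628 of 21839).

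All 15 libraries entered 1 fit in edgeR 4.0.16 (R 4.3.3; TMM, filterByExpr, robust glmQLFit, glmQLFTest), with Benjamini-Hochberg adjustment over 13887 genes. SE and 95% intervals derive from the quasi-likelihood F statistic. CPM uses the library total and TMM factor, and ratios use log2 CPM with a prior count of 2. Because reads were amplified and carry no molecular identifiers, they do not stand for separate molecules. No 2 libraries of a group were duplicates (lowest mean chi-square per gene 28.3). Alternatives used RLE, upper quartile and pan-endothelial scaling, other filters, DESeq2 1.42.0, limma 3.58.1 (voom), 2-group fits, the replicate number as a block and each library left out. The edgeR step was tested on simulated data. Its first requirement, on the share of changed genes called, was missed for Tumor against TdLN and was replaced by requirements on the error of the fold changes and on false calls, which were met. Promoters are from RefSeq (4 of 4 genes matched), and figures used matplotlib 3.10.9.

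The genes and lists were chosen with earlier results of these data known, and the motifs and the marking of CG dinucleotides after the promoters were seen. Genes named outside the lists are the 3 closest in profile to each marker, among genes whose log2 CPM averaged 3 or more. Keratinocyte and epithelial markers were near 0 (at most 0.00108% of counts), as were lymphocyte markers (at most 0.00546%). Macrophage markers reached at most 0.0138% in Tumor and 0.00215% in TdLN libraries, pericyte markers 0.0326% and 0.026%, and blood endothelial markers 0.126% and 0.754%.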

Additional observations from a re-analysis of the deposited data

Results flagged for a closer look

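Of 54 groups of 5 libraries examined for a value far from the others (levels of the 4 genes and the log2 ratios), 3 had one by Dixon's criterion (critical value 0.71), and chance flags about 1 in 20. Pdpn in TdLN 4 was at 93.6 CPM, below the other TdLN libraries. The log2 ratio of Pdpn to Prox1 in NdLN 1 was -2.09, above the other NdLN libraries. The log2 ratio of Mmrn1 to Prox1 in TdLN 2 was 2.56, above the other TdLN libraries.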

How the results depend on the processing

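Between Tumor and either node, the calls for Klhl4, Mmrn1 and Reln and the directions of their changes were the same in every alternative and with each library left out. Pdpn changed sign on the pan-endothelial scale, to 1.25 (Tumor against TdLN), 1.45 (Tumor against NdLN) and 0.20 (TdLN against NdLN), and in voom, to 0.12 in both tumor comparisons. With 1 library left out it ran from -0.22 to 0.17, from -0.25 to 0.13 and from -0.09 to 0.06 in the same order. Klhl4 between TdLN and NdLN turned to 0.07 on the pan-endothelial scale, and Reln ran from -0.03 to 0.42 with 1 library left out. Mmrn1 between TdLN and NdLN passed the test with RLE factors, with a filter of 10 CPM in 5 libraries and in DESeq2 (-0.61 each), in the fit of these 2 groups (-0.60) and in voom (-0.57), and ran from -0.69 to -0.52 with 1 library left out, passing without NdLN 3. The cause was not tested.

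Genes called between TdLN and NdLN numbered 484, against 988 in DESeq2, 818 in voom and 225 to 564 with 1 library left out. They numbered 225, 258 and 315 without TdLN 1, 2 and 3, and 245, 307, 277 and 319 without NdLN 2, 3, 4 and 5. Of 35 log2 ratio differences that passed, 29 passed whichever library was left out. The other 6 lost the call in 7 to 9 of 10 such fits, where 4 libraries against 5 allow no p below 0.0159. Their ranges were 0.32 to 0.51 (Mmrn1 to Prox1, Tumor against NdLN), -0.93 to -0.68 (Mmrn1 to Reln, TdLN against NdLN), 0.39 to 0.62 and 0.52 to 0.91 (Pdpn and Reln to Prox1, TdLN against NdLN), and 1.05 to 1.48 and 1.22 to 1.64 (Pdpn to the pan-endothelial genes, Tumor against TdLN and against NdLN). Klhl4 to the pan-endothelial genes between the nodes ran from -0.03 to 0.08. A prior count of 0.5 changed no ratio call.

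The replicate numbers are shared across groups, but nothing in the labels says that they pair libraries. Deviations of same-numbered libraries correlated at -0.21 to 0.248, over 0.1 in 4 of 15 pairs, and 2 of 15 libraries correlated best with their own number. With the replicate number as a block, 400 genes were called between TdLN and NdLN, no call of the 4 genes changed, and Cd9, Klhl23 and Lyve1 no longer passed (adjusted p = 0.0632, 0.0568 and 0.0748), while Plat and Ackr2 did.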
